A study of Mus musculus with 3 samples.

Results

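Of 9749 sorted tumour macrophages kept from 3 mice, 485 (4.97%) were selected for high expression of Retnla, Fn1, Lyz1, Ear2 and 3 further genes. They were chosen by a score, the mean of the natural log of 1 plus UMIs per 10000 over 7 genes: Retnla, Lyz1, Ifitm6, Ear2, Fn1, Clec4b1 and F10. A selected cell had a UMI (a unique molecular identifier, 1 counted transcript) of at least 4 of the 7 genes and lay among the top 8% of its library by that score. The rule found 16 cells of 663 in mouse 1, 168 of 2108 in mouse 2 and 301 of 6978 in mouse 3. The 7 genes therefore describe the set, and no test is given for them. Other genes were not used to choose the cells, although they were read in the same cells.

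The cells came from mammary adenocarcinomas of FVB/N-Tg(MMTVPyVT)634Mul/J mice, in which the MMTV promoter drives the polyoma middle T oncogene in mammary epithelium. A tumour of 750 mm3 was taken from each of 3 mice, digested with collagenase and DNase, and sorted for CD45+ Ly6G- CD11b+ F4/80+ cells, which were sequenced with a 10x 3' v3 kit. All 3 libraries are replicates of this 1 untreated group, so there is no control arm, and the comparisons are between cells of the same mice. The selected cells were compared with the other kept cells, then with cells chosen by a monocyte score and by a LYVE-1 score.

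Retnla encodes RELMα (also called Fizz1), a secreted resistin-like protein that IL-4 and IL-13 induce in macrophages through STAT6, and it is a classic marker of alternative activation. Fn1 encodes fibronectin, an extracellular matrix glycoprotein, and F10 encodes coagulation factor X. Recently recruited macrophages and small macrophages of the serous cavities are known to carry Retnla, Fn1, the ribonuclease genes Ear1 and Ear2, Cd226 and Irf4, while mature tissue macrophages carry more complement C1q and Apoe.

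The selected cells held more RNA than the rest. Their median was 27615.5 UMIs in mouse 1, 30118.5 in mouse 2 and 22289 in mouse 3, against 14960, 13014 and 9158 in the other kept cells, a ratio of 1.85, 2.31 and 2.43. A deeper cell more easily shows 4 of 7 genes. With every cell thinned to 4000 UMIs before the choice, the same rule selected 9 of 575, 145 of 1891 and 153 of 6352 cells in mice 1, 2 and 3, of which 9, 135 and 153 were among the selected cells. Chosen on 1 of 2 equal random parts of each cell's UMIs, the sets held 13, 165 and 233 cells. Counts against other cells matched for depth are given below for all genes, and for gene lists where they move a count by over 1.5 times. Mouse 1 contributed only 16 cells, with 450492 UMIs in all, against 6235162 in mouse 2 and 8034507 in mouse 3. Libraries 2 and 3 shared 8 cell barcodes, none of them selected in both libraries.

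Mouse 2 stood apart in how many cells carried these genes. Cells with a UMI of at least 4 of the 7 genes made up 3.62% of kept cells in mouse 1, 17.8% in mouse 2 and 5.33% in mouse 3. The limit of 8% thus bound in mouse 2, where 208 cells with at least 4 genes scored below it, against 8 in mouse 1 and 71 in mouse 3. The lowest selected score was 0.616, 1.76 and 0.602 in the 3 mice, and the highest score of a cell left out despite 4 genes was 0.572, 1.76 and 0.584. In mouse 2 the other kept cells therefore include many that carry 4 or more of these genes. The selected shares, 2.41%, 7.97% and 4.31% (exact binomial 95% intervals 1.39 to 3.89, 6.85 to 9.21 and 3.85 to 4.82, counting error only), cannot be compared between mice for the same reason.

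**Figure D1:**
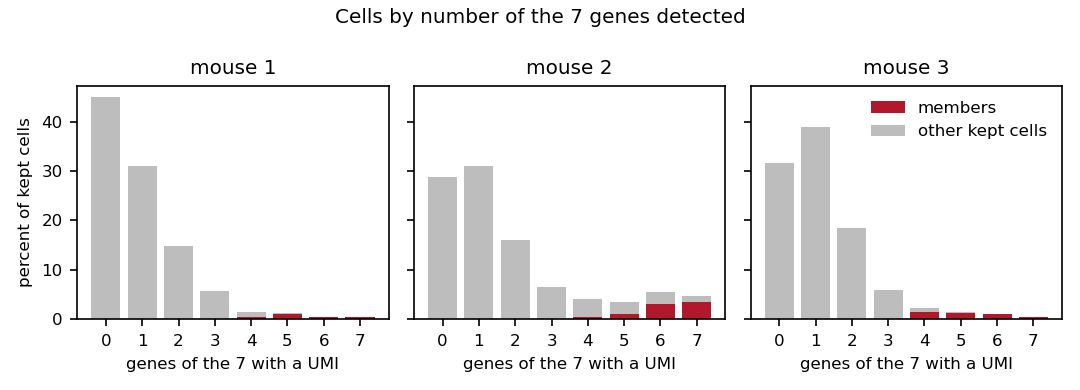
Percent of kept cells (vertical axis) by the number of the 7 genes with a UMI (horizontal axis) in each mouse, with selected cells in red and other kept cells in grey. In mouse 2 a second rise at 6 and 7 genes holds 5.55% and 4.74% of cells, and much of it is grey.

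Retnla was the most abundant of the 7 genes. Summed over the selected cells of a mouse it reached 7250, 14525 and 7948 UMIs per 1000000 (CPM) in mice 1, 2 and 3, against 31.5, 1030 and 82.8 in the other kept cells. Every selected sum lay above every other sum, with mouse 2 highest on both sides. The level varied widely between single cells: the median selected cell held 25.05, 132 and 47.6 Retnla UMIs per 10000, and the richest held 753, 979 and 683. Retnla lies on chromosome 16, and a UMI was found in 81.3%, 100% and 96.7% of selected cells.

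Fn1 stood at 2155, 3233 and 1987 CPM in the selected cells against 415, 390 and 360 in the others. It was the least exclusive of the 7 genes, since 48.0% of other kept cells also had a UMI of it. Lyz1, a lysozyme that degrades bacterial cell walls, stood at 946, 4507 and 1452 CPM against 26.7, 233 and 39.3. It was uneven in mouse 1, where the median selected cell had 0.689 Lyz1 UMIs per 10000 and the highest had 123.

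The other 4 genes were lower in level. Ifitm6, of the interferon-induced transmembrane family, stood at 184, 215 and 137 CPM against 5.7, 15.6 and 4.22. Clec4b1, a C-type lectin receptor of the Dectin-2 cluster, stood at 178, 238 and 102 CPM against 18.2, 36.7 and 9.82. F10 stood at 122, 151 and 62.2 CPM against 10.0, 12.9 and 2.75. Ear2, an eosinophil-associated ribonuclease of the ribonuclease A superfamily, stood at 59.9, 166 and 50.2 CPM against 1.12, 10.5 and 0.542. For each of these 4 genes all 3 selected sums exceeded all 3 other sums.

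**Figure D2:**
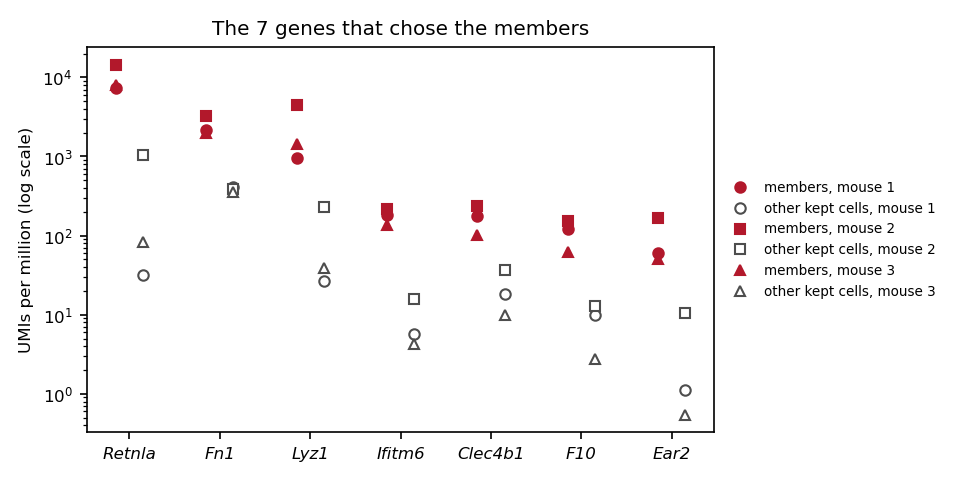
Level of the 7 genes that chose the cells, in CPM on a log axis, with 1 point per mouse (filled red, selected cells; open grey, other kept cells). For all 7 genes the 3 red points lie above the 3 open points, and among the open points mouse 2 is highest for every gene but Fn1.

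Each of the 7 genes was also read in cells chosen without it. Since the 7 were put together with these data known, these values only describe the set. Cells were chosen in the same way by the other 6 genes (at least 3 of them), and the left-out gene was then compared with the rest of the library. Retnla was 140-fold, 11.7-fold and 62.6-fold higher in mice 1, 2 and 3. Ear2 was 36.1-fold, 10.4-fold and 64.6-fold higher, and Lyz1 27.3-fold, 13.3-fold and 32.4-fold. Fn1 was at 4.22-fold, 7.62-fold and 5.22-fold and Clec4b1 at 7.77-fold, 6.18-fold and 8.32-fold. Selected cells also resembled each other in genes outside the rule. After all cells were thinned to 4000 UMIs and the 7 genes, Ear1, Ear10 and Lyz2 were set aside, 20.8%, 64.9% and 55.5% of the 15 nearest neighbours of a selected cell were selected cells, where such cells made up 2.78%, 8.78% and 4.64%.

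Selected cells with more of the 7 genes were also deeper. Cells with 6 or 7 genes had a median of 33538.5, 34670 and 27329 UMIs, and those with 4 or 5 had 14390.5, 18101 and 18476.5. Retnla was at 11067 CPM in mouse 1 and 21024 CPM in mouse 2 in the cells with fewer genes, above the 3279 and 13945 CPM of those with more. In mouse 3 the order was the other way, at 6022 and 10720 CPM. Retnla is part of the score, and cells with fewer of the 7 genes needed higher levels of those genes to reach the limit. These values therefore only describe the set, and in mouse 1 they rest on 10 and 6 cells. Cells with exactly 3 of the 7 genes, just outside the rule, held 277, 661 and 394 CPM of Retnla.

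The region before the start of Retnla is shown because Retnla is the leading gene of the set and its window matches the letters of a STAT6 site, the factor through which IL-4 is known to act. The 250 bases before the start site were taken from RefSeq on build GRCm38.p6, which gave an entry for 6 of the 7 genes, and were searched on both strands for TTCNNNNGAA (the STAT6 form) and TTGCNNAA (a C/EBP form, read as TTNNGCAA on the other strand). Capitals mark the matches. The sequence lies at chr16:48842359-48842608 on the plus strand.
Retnla: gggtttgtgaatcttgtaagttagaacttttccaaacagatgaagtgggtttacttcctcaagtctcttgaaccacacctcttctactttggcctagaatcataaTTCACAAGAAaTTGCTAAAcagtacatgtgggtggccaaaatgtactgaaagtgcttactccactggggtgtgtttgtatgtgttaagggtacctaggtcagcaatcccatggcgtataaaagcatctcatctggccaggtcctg
The STAT6 form and the C/EBP form stand next to each other in Retnla, with 1 base between them. Of 32851 promoter windows of the same length, 5.85% held the STAT6 form and 9.56% the C/EBP form. Among the other searched genes of the rule no window held the STAT6 form, and those of Ifitm6, Clec4b1 and F10 held neither form. A match describes letters only and does not show binding.

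Ear2 and its relative Ear1 are shown because they are close copies whose counts could be mixed. Ear2 lies at chr14:44102404-44102653 on the plus strand in this window and Ear1 at chr14:43819640-43819889 on the minus strand. Capitals again mark the C/EBP form, and neither window held the STAT6 form.
Ear2: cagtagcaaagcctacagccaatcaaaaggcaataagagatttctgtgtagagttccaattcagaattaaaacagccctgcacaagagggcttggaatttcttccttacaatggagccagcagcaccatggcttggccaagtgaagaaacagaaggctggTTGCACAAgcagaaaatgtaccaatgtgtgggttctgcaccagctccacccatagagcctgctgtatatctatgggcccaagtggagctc
Ear1: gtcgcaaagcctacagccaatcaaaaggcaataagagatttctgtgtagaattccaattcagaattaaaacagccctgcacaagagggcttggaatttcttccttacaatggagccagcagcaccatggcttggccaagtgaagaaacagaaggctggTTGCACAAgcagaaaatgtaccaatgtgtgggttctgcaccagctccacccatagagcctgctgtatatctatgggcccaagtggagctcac
The windows were identical at 99.2% of 248 aligned bases. Ear1 values follow below. The last 300 bases of their transcripts, the end that a 3' kit reads, were identical at 98.7%, so reads of Ear1 and Ear2 may be hard to tell apart and their single values are uncertain.

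Lyz1 and Lyz2 form a second such pair, and their windows are shown because only Lyz1 was in the rule. They lie at chr10:117292869-117293118 and chr10:117282273-117282522, both on the minus strand. The C/EBP form in capitals stands in Lyz1 and not in Lyz2.
Lyz1: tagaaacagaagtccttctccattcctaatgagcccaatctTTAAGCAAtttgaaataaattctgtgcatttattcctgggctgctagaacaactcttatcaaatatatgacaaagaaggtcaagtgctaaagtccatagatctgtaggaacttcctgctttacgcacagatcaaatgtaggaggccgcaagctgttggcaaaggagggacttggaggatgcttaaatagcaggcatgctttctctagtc
Lyz2: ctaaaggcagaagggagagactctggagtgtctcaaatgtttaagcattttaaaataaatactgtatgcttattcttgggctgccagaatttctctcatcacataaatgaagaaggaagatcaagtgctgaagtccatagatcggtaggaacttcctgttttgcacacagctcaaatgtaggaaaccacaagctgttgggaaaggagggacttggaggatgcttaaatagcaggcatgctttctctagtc
These windows matched at 80.6% of 248 aligned bases, and the last 300 transcript bases matched at 96.9%. Lyz2, the myeloid lysozyme found in nearly all macrophages, stood at 18899, 15902 and 15768 CPM in the selected cells against 10756, 8835 and 11203, a log2 fold change of 0.76 ± 0.14 (SE; edgeR adjusted p = 0.00378). The difference in Lyz2 is thus far smaller than that in Lyz1, and the share of it due to mixed reads was not tested.

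The selected cells kept the markers of the sort. Ptprc, which encodes CD45, stood at 357, 624 and 360 CPM against 358, 595 and 365 (log2 fold change 0.07 ± 0.11, edgeR adjusted p = 0.772). Adgre1, which encodes F4/80, stood at 275, 213 and 267 CPM against 341, 282 and 290 (-0.22 ± 0.11, edgeR adjusted p = 0.236). Csf1r, the receptor for the macrophage growth factor CSF1, stood at 635, 555 and 665 CPM against 803, 761 and 718 (-0.25 ± 0.11, edgeR adjusted p = 0.197). For Adgre1 and Csf1r all 3 selected sums were below all 3 others, as for 13% of tested genes, and neither gene passed the test. Itgam, which encodes CD11b, was higher in mice 2 and 3 and level in mouse 1 (151, 237 and 244 CPM against 151, 128 and 160), with a log2 fold change of 0.61 ± 0.17 and an edgeR adjusted p of 0.0435. The call was lost against depth-matched cells (0.45, edgeR adjusted p = 0.157), without mouse 2 (0.38, edgeR adjusted p = 0.491) and with DESeq2 (0.57, DESeq2 adjusted p = 0.052). No UMI of Ly6g was found in 485 cells, which allows a share of up to 0.619% of cells with a UMI.

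Tests on the other genes used edgeR's quasi-likelihood test on UMIs summed per mouse, with mouse as a block and 11275 genes tested. At an adjusted p under 0.05, 970 genes were higher in the selected cells, which is 8.6% of those tested, and 434 were lower, which is 3.85%. The median log2 fold change of all tested genes was -0.02. All 3 selected sums lay above all 3 other sums in 970 genes (8.6%) and below them in 1471 (13%). List counts and statements of no overlap in this comparison are to be read beside these shares. Against reference cells matched for depth, 640 genes were higher and 186 lower. Without mouse 1 the counts were 1202 and 662, without mouse 2 they were 127 and 2, and without mouse 3 no gene passed (1015 higher and 711 lower at an unadjusted edgeR p under 0.05). In this comparison, therefore, no gene passed with mice 1 and 2 alone, and 2 lower genes passed without mouse 2. Of the 55 named genes that were called, 55 kept their direction without mouse 1 and without mouse 3, and all 54 with a value kept it without mouse 2. Without mouse 2, 31 of the 39 called higher genes and 1 of the 16 called lower genes still passed.

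Ribonuclease genes outside the rule were higher or lower by member. Ear1 stood at 40.0, 175 and 34.6 CPM in the selected cells against 1.68, 10.5 and 0.361, with all selected sums above all others. Its log2 fold change was 4.98 ± 0.66 (edgeR adjusted p = 0.0417), the largest of the named genes, with the caution on near copies above. Ear2 chose the cells, so any Ear2 reads counted as Ear1 would carry the selection into every test of Ear1. The share of such reads was not tested. Leaving out mouse 1 ended the call (4.95, edgeR adjusted p = 0.27), and the fold reached 7.95 when cells with 3 or more of the 7 genes were left out of the reference. The rule's own genes cut that reference, so the larger fold is no further support. Ear10, a further member at 2.22, 1.6 and 0.871 CPM, was higher by 4.01 ± 0.72 (edgeR adjusted p = 0.00263) on only 18 UMIs. The last 300 bases of its transcript matched those of Ear2 at 91.6%, so the caution on Ear1 holds for Ear10 too. Of the 6 tested genes of the ribonuclease A list, 3 were higher (Ear1, Ear10, Rnase2a) and 2 lower (Ang, Rnase4), with a median of 1.45, and 2 and 1 against depth-matched cells. No UMI of Ear6 was seen in the selected cells.

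F7, which encodes coagulation factor VII and lies beside F10 on chromosome 8, stood at 71.0, 54.0 and 44.4 CPM against 3.92, 7.99 and 2.21. The groups did not overlap, and the log2 fold change was 3.70 ± 0.35 (edgeR adjusted p = 0.00271; without mouse 1 3.59, edgeR adjusted p = 0.229). Serpinb2, an inhibitor of plasminogen activators, stood at 2.22, 34.0 and 18.8 CPM against 1.03, 5.05 and 0.864, so mouse 1 overlapped the others. Its log2 fold change was 3.50 ± 0.40 (edgeR adjusted p = 0.00362; 3.55 and 0.155 without mouse 1). F5, factor V, was higher by 2.69, and F13a1, the fibrin cross-linking factor XIII subunit, rose from 248, 218 and 178 CPM to 733, 501 and 522 (1.48 ± 0.11, edgeR adjusted p = 7.07e-06). Of 21 tested coagulation and fibrinolysis genes 9 were higher and 4 lower (Plat, Procr, Plau, Tfpi), with a median of 0.29. Against depth-matched cells the counts were 7 and 0, and without mouse 2 they were 5 and 0. Procr, the endothelial protein C receptor, was at 11.1, 18.4 and 52.0 CPM against 82.6, 44.0 and 89.6 (-1.13 ± 0.25, edgeR adjusted p = 0.031; -1.01 and 0.124 against depth-matched cells).

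Matrix genes were higher in part. Sdc1, the cell surface proteoglycan syndecan-1, stood at 22.2, 54.4 and 27.0 CPM against 1.4, 6.55 and 2.45 (log2 fold change 3.38 ± 0.16, edgeR adjusted p = 3.61e-07). Vcan, the large matrix proteoglycan versican and a monocyte marker, stood at 31.1, 44.4 and 10.6 CPM against 8.6, 5.64 and 2.06 (2.62 ± 0.21, edgeR adjusted p = 1.92e-05). Mmp19, a metalloproteinase, stood at 297, 541 and 246 CPM against 41.2, 81.5 and 56.0 (2.602 ± 0.15, edgeR adjusted p = 1.17e-06). Timp1, a metalloproteinase inhibitor, stood at 149, 137 and 89.99 CPM against 32.1, 29.9 and 13.7 (2.45 ± 0.13, edgeR adjusted p = 7.20e-07). None of these 4 genes overlapped between the groups. Of the fibronectin receptor subunits, Itga4 was higher by 0.54 ± 0.12 (edgeR adjusted p = 0.0154) and Itga5 did not pass (0.06 ± 0.11, edgeR adjusted p = 0.781), while Itgb5 fell from 372, 385 and 441 CPM to 93.2, 179 and 285 (-1.07 ± 0.23, edgeR adjusted p = 0.0283). The list of fibronectin partners and matrix had 8 of 19 tested genes higher and 2 lower, with a median of 0.12, then 7 and 1 against depth-matched cells, and 3 and 0 without mouse 2.

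Chemokine genes moved in both directions. Ccl6, a CC chemokine that macrophages raise in response to IL-4, stood at 3052, 3331 and 2877 CPM against 565, 542 and 437. The selected sums lay within a narrow band, and the log2 fold change was 2.64 ± 0.13 (edgeR adjusted p = 3.61e-07). Its neighbour on chromosome 11, Ccl9, stood at 1483, 1665 and 932 CPM against 373, 390 and 199 (2.15 ± 0.12, edgeR adjusted p = 7.83e-07). Ccl24, which attracts eosinophils, stood at 178, 445 and 162 CPM against 61.8, 60.5 and 19.0 (2.65 ± 0.38, edgeR adjusted p = 0.0235), and leaving out mouse 2 ended the call (edgeR adjusted p = 0.114). Of 22 tested chemokines 8 were higher (also Cxcl3, Ccl2, Cxcl2, Cxcl1 and Ccl7) and 5 were lower (Ccl17, Ccl22, Cxcl16, Ccl4 and Ccl3), with a median of 0.35, and without mouse 2 the counts were 5 and 0. Ccl22, made by alternatively activated macrophages and dendritic cells, was at 2.22, 7.06 and 6.22 CPM against 6.92, 19.3 and 9.15 (-0.95 ± 0.21, edgeR adjusted p = 0.012).

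The alternative activation list, which leaves out Retnla, was mixed. Of its 26 tested genes 8 were higher and 3 lower, with a median of 0.69, and without mouse 2 the counts were 5 and 0. Irf4, a transcription factor that IL-4 induces and that drives this programme, stood at 24.4, 95.6 and 34.0 CPM against 3.36, 16.7 and 5.39. The groups did not overlap, with a log2 fold change of 2.68 ± 0.13 (edgeR adjusted p = 3.61e-07). Mrc1, the mannose receptor CD206, stood at 990, 730 and 604 CPM against 389, 427 and 280 (1.12 ± 0.12, edgeR adjusted p = 9.42e-05). Clec10a, a galactose-type lectin, was higher by 1.53, and its relative Mgl2 did not pass (1.45 ± 0.40, edgeR adjusted p = 0.114) although all 3 mice were higher.

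Other textbook markers of alternative activation did not pass the test. Arg1, arginase 1, stood at 2.22, 1.44 and 20.9 CPM against 75.8, 8.19 and 18.1 (-0.90 ± 0.89, edgeR adjusted p = 0.644). Chil3, which encodes the chitinase-like protein Ym1, stood at 17.8, 1.12 and 16.9 CPM against 10.9, 2.73 and 11.03 (0.32 ± 0.28, edgeR adjusted p = 0.538). Il4ra, the receptor chain shared by IL-4 and IL-13, stood at 142, 109 and 133 CPM against 111, 129 and 113 (0.14 ± 0.12, edgeR adjusted p = 0.515). All 3 genes overlapped between the groups.

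Cebpe, a C/EBP factor of late granulocyte differentiation, had the largest fold of the named transcription factors. It was at 13.3, 64.5 and 17.3 CPM in the selected cells and at 0.748, 6.61 and 1.17 CPM in the others (log2 fold change 3.66 ± 0.17, edgeR adjusted p = 3.61e-07), without overlap. Of the 32 tested genes of a list of monocyte and macrophage transcription factors, which holds Irf4 but not Cebpe, 9 were higher and 1 lower (Runx3), with a median of 0.16, and without mouse 2 the counts were 1 and 0. Batf3 was higher by 1.28 and Cebpb, the family member of most mature macrophages, by 0.47.

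Many genes known from recruited monocytes were higher. Ccr2, the chemokine receptor that brings monocytes out of the marrow, stood at 646, 352 and 310 CPM against 208, 126 and 93.5 (log2 fold change 1.66 ± 0.11, edgeR adjusted p = 2.19e-06). S100a6 stood at 1168, 1820 and 1090 CPM against 292, 367 and 221 (2.25 ± 0.13, edgeR adjusted p = 8.67e-07), and S100a4, also a small calcium-binding protein, at 1119, 971 and 654 CPM against 269, 232 and 181 (2.04 ± 0.12, edgeR adjusted p = 9.06e-07). Hp, which encodes haptoglobin, was at 31.1, 6.25 and 13.3 CPM against 4.49, 0.499 and 3.03 (2.65 ± 0.28, edgeR adjusted p = 0.000136). None of these 4 genes overlapped. Ly6c2, the classical monocyte marker, was low on both sides (2.22, 13.5 and 0.622 CPM against 6.07, 2.0 and 2.75) and did not pass (1.05 ± 1.31, edgeR adjusted p = 0.721). The list of monocyte egress, adhesion and immaturity had 19 of 34 tested genes higher and 3 lower (Cx3cr1, Ms4a6c, Ms4a6d), with a median of 0.92, and 10 and 0 without mouse 2. A shorter monocyte list, given below, had 3 of 7 tested genes higher (Hp, Vcan, Ccr2) and 0 lower. Against depth-matched cells its counts were 3 and 1. Of 6 tested non-classical monocyte genes 0 were higher and 0 lower, with a median of -0.42.

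Of the 8 genes listed for small serous cavity macrophages, all of them tested, 4 were higher (Irf4, Ccr2, Clec10a, Folr2) and 0 lower, with a median of 1.49, and without mouse 2, 6 were higher. Cd226, an adhesion receptor that marks these cells, stood at 17.8, 53.4 and 16.4 CPM against 0.0934, 5.05 and 0.194. All selected sums were above all others, but with a log2 fold change of 4.57 ± 0.83 the edgeR adjusted p was 0.0836. It passed without mouse 2 (6.51, edgeR adjusted p = 0.0178). With cells of 3 or more of the 7 genes left out of the reference, its log2 fold change was 7.33. That reference was cut by the rule's own genes after the data were seen, so the value is no further support. Lists of other macrophages were also higher in part. Of 5 tested genes for large serous cavity macrophages 2 were higher (Selp, Timd4) and 0 lower. The counts were 1 and 0 against depth-matched cells, and 0 and 0 without mouse 2. Of 5 tested genes for alveolar macrophages 2 were higher (Ear1, Pparg) and 0 lower, and without mouse 2 the counts were 1 and 0. The small cavity list gave 2 higher and 0 lower of 7 against the monocyte-scored cells described below. Of all genes tested there, 1.91% were higher and 1.47% lower. Against LYVE-1-scored cells the small cavity list gave 4 higher and 1 lower of 7, where 4.47% of all tested genes were higher and 3.54% lower. No cavity or alveolar macrophages were measured, so these lists name genes and not a cell type here.

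Antigen presentation genes were mixed. H2-Ab1, a class II beta chain, stood at 9132, 7925 and 6575 CPM against 4989, 6864.5 and 5450 (log2 fold change 0.49 ± 0.14, edgeR adjusted p = 0.0444), and its call was lost against depth-matched cells (0.90, edgeR adjusted p = 0.105). Ciita, the master regulator of class II genes, did not pass (0.48 ± 0.15, edgeR adjusted p = 0.052). Of 16 tested genes 7 were higher and 4 lower (H2-Oa, H2-Ob, Lgmn, Ctss), with a median of 0.40, then 5 and 1 against depth-matched cells, and 0 and 0 without mouse 2. Among C-type lectin receptors 7 of 18 tested were higher and 2 lower, with a median of 0.81, and 6 and 1 against depth-matched cells. Clec4a1, of the same cluster on chromosome 6 as Clec4b1, stood at 273, 99.9 and 117 CPM against 122, 65.7 and 62.4 (0.92 ± 0.12, edgeR adjusted p = 0.000283), whereas Clec5a fell from 82.3, 117 and 111 CPM to 28.9, 40.6 and 71.9 (-1.06 ± 0.17, edgeR adjusted p = 0.00248). No UMI of Clec4b2, the near relative of Clec4b1, was found in the selected cells.

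Single secreted and innate genes stood high as well. Il6, the acute-phase cytokine, was at 42.2, 49.1 and 17.5 CPM against 2.15, 6.84 and 2.04 (log2 fold change 3.21 ± 0.20, edgeR adjusted p = 1.64e-06). Tnf went the other way, at 84.4, 115 and 70.9 CPM against 167, 261 and 117, a log2 fold change of -0.90 (edgeR adjusted p = 0.000451). Cfp, which encodes properdin of the alternative complement pathway, stood at 846, 756 and 501 CPM against 217, 181 and 109 (2.12 ± 0.12, edgeR adjusted p = 7.20e-07). Ifitm3, which restricts virus entry, stood at 2784, 1520 and 1159 CPM against 802, 464 and 314 (1.84 ± 0.11, edgeR adjusted p = 1.59e-06). Neither Il6, Cfp nor Ifitm3 overlapped between the groups. Of 16 interferon-stimulated genes 1 was higher (Oasl1, 1.78) and 0 lower, with a median of -0.08, where 8.6% of all tested genes were higher and 3.85% lower.

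The 10 genes in no list complete the named higher genes. Cd2, an adhesion receptor best known from T and NK cells, stood at 19.98, 110 and 45.8 CPM against 1.87, 11.6 and 2.21 (log2 fold change 3.81 ± 0.23, edgeR adjusted p = 7.44e-06). T cell genes did not follow it: Cd3g, Trac and Cd8a had no UMI in the selected cells, and Cd3e had a UMI in 1 of 485. Ltb4r1, the leukotriene B4 receptor, was at 62.2, 121 and 48.3 CPM against 12.2, 13.1 and 4.62 (3.17 ± 0.19, edgeR adjusted p = 4.00e-06). Mcub, a subunit of the mitochondrial calcium uniporter, was at 178, 249 and 114 CPM against 23.4, 44.1 and 18.1 (2.71 ± 0.12, edgeR adjusted p = 3.32e-07). Glipr2, Dok2, Hopx, Gda, Lrg1, Pira2 and Eps8 were higher by 1.91 to 3.06, and for all 10 genes the groups did not overlap.

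**Figure D3:**
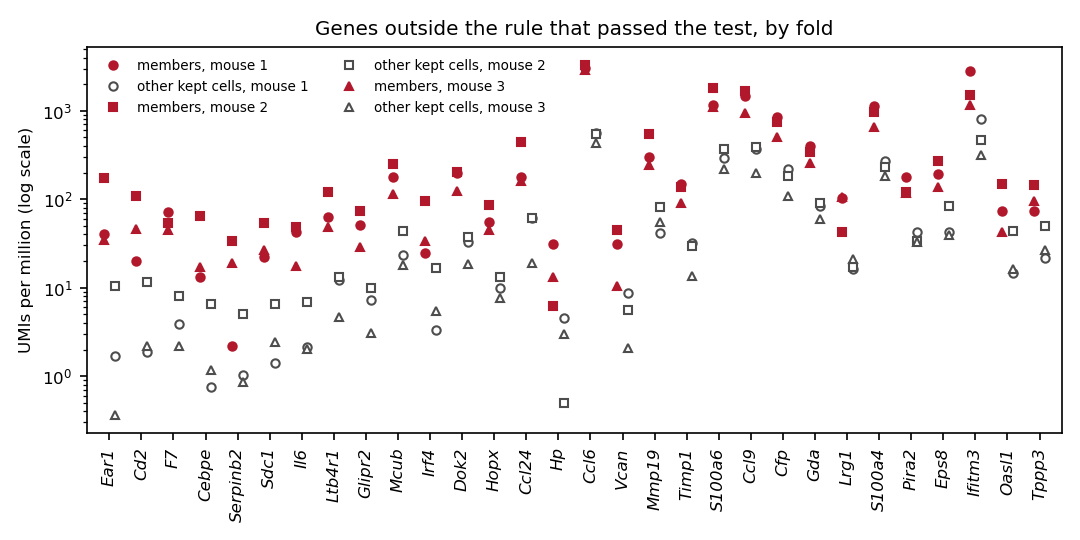
Level in CPM (log axis) of the 30 named genes outside the rule that were higher in the selected cells, ordered by fold, with 1 point per mouse (filled red, selected cells; open grey, other kept cells). The groups separate for all but Serpinb2 and Oasl1, and Ear1 and Cebpe lie below 20 CPM in all other kept cells. Ear1 is a near copy of Ear2, which chose the selected cells.

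Several genes of mature tissue macrophages were lower. Of the 10 genes of the macrophage lineage list, 0 were higher and 5 lower (C1qa, C1qb, C1qc, Apoe and Fcgr1), with a median of -0.46. Apoe, the lipid-carrying apolipoprotein, stood at 17190, 15814 and 24628 CPM against 29176, 36479 and 38597, a log2 fold change of -0.83. C1qa, of the first complement component, stood at 2644, 3351 and 5473 CPM against 5672, 7140 and 7451, also -0.83. The groups did not overlap for either gene, and no gene of this list passed without mouse 2.

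Further named genes were lower. Cd207, the lectin langerin, fell from 69.2, 116 and 103 CPM to 0, 22.3 and 25.9, a log2 fold change of -2.25 ± 0.29 (edgeR adjusted p = 0.00562), and was the only named lower gene that also passed without mouse 2. Cd63, a tetraspanin of late endosomes, stood at 595, 764 and 1107 CPM against 1621, 1674 and 1842 (-1.04 ± 0.15, edgeR adjusted p = 0.000684). Havcr2, the inhibitory receptor TIM-3, stood at 22.2, 80.7 and 77.0 CPM against 117, 220 and 139 (-1.25 ± 0.20, edgeR adjusted p = 0.00462). Plau and Il1r2 did not pass against depth-matched cells (edgeR adjusted p = 0.224 and 0.0668). Acp5, an acid phosphatase of osteoclasts and macrophages, Cd72, Rnf121, Cd9, Axl, Il1r2 and Plau lay between -1.19 and -0.90. Of 18 cycling genes 0 were higher and 6 lower (among them Cdk1 and Birc5), with a median of -0.53. Lipid-associated genes gave 2 higher and 4 lower of 21, and 1 and 4 against depth-matched cells. Of all genes tested in this comparison 8.6% were higher and 3.85% lower, so the count of higher lipid-associated genes is near that share.

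Cells with a UMI of at least 3 genes of a lymphocyte, granulocyte, epithelial, fibroblast or endothelial list made up 12.5%, 2.38% and 2.99% of selected cells, against 0.927%, 1.65% and 1.29% of the others. The part of such cells in the results was not tested beyond leaving them out of the reference. They numbered only 2, 4 and 9 of the selected cells in mice 1, 2 and 3. One of the granulocyte lists holds Ear1, the near copy of Ear2, and the selected cells were deeper. How far either raised these shares was not tested. The 9 tumour epithelium genes summed to 4.44, 8.98 and 23.8 CPM, below the 15.6, 42.5 and 46.3 CPM of the other kept cells, and 5 of 8 tested were lower, against 1 of 6 with depth-matched cells (Krt18, a keratin, by -1.28, edgeR adjusted p = 0.0405, but -0.04 with 0.956 once cells carrying markers of other lineages had been left out of the reference). Wfdc18, a mammary secretory gene, had a log2 fold change of -1.23 (edgeR adjusted p = 0.0287), but of 0.68 (edgeR adjusted p = 0.0174) without those cells. The 10 neutrophil genes summed to 28.9, 28.7 and 33.1 CPM against 37.7, 31.6 and 34.2, with S100a9, Retnlg, Ly6g and Ngp at 0. The 8 T cell genes summed to 6.66, 7.54 and 7.97 CPM against 15.8, 16.9 and 12.5. Of the eosinophil genes Epx, Prg2, Il5ra and Ear6 were at 0 although Ear1, on the same list, was high. In 28 cells with at least 5 of 9 epithelial genes, which should lack the programme, Ear2, Ear1, Ifitm6, Clec4b1, F10 and Cebpe were at 0. Retnla had a UMI in 25% of them at a median depth of 8846 UMIs, against 97.3% of selected cells at 25386, and thinned to 2000 UMIs the shares were 3.85% and 87.6%. Retnla, Ear2, Ifitm6, Clec4b1 and F10 chose the selected cells, so their contrast with these 28 cells was fixed by the rule. A 0 in 28 cells also says little about rare genes. In cells not chosen by the other 6 genes, Ear2 had a UMI in only 0.632%, 4.64% and 0.29% in mice 1, 2 and 3.

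**Figure D4:**
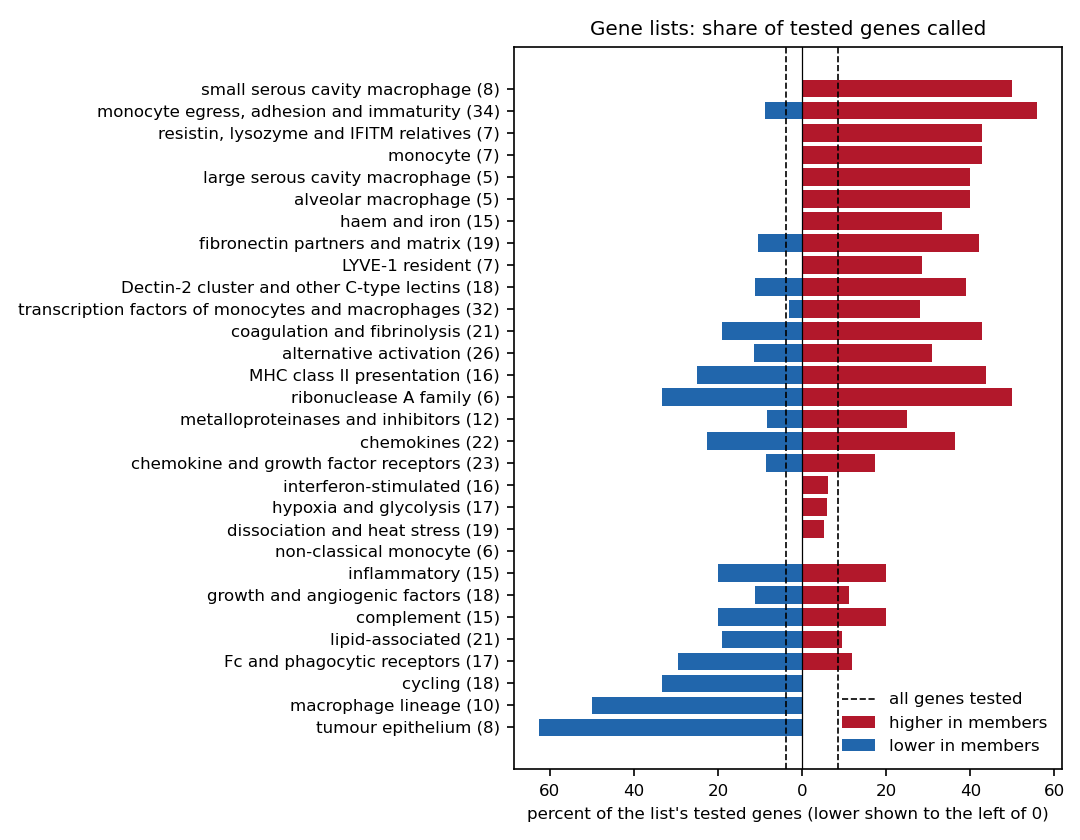
Share of the tested genes of each list (number tested in brackets) that was higher (red, right of 0) or lower (blue, left of 0) in the selected cells, for lists with at least 5 tested genes; dashed lines mark the 8.6% and 3.85% of all genes. Monocyte egress genes reach 19 of 34 to the right, and macrophage lineage genes 5 of 10 to the left.

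Monocyte-scored cells were the next comparison. They were the cells among the top 8% of their library by the same score over a monocyte list that includes Ly6c2, Plac8, Chil3, Ccr2, Vcan, Ms4a4c and Hp, with at least 3 of its genes. There were 323, of which 54 were also selected cells (11.1% of the selected, 16.7% of the monocyte-scored), and cells in both sets were left out. Of 9007 genes tested, 172 were higher in the selected cells (1.91%) and 132 lower (1.47%). This comparison shares the selected cells with the one above, so its values stand beside the earlier ones and are no further evidence for them. Without mice 1, 2 and 3 in turn, 291, 70 and 73 were higher.

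Several of the genes above were also higher than in monocyte-scored cells. Ear1 stood at 47.0, 184 and 36.2 CPM against 10.1, 34.7 and 1.17 (log2 fold change 2.91 ± 0.33, edgeR adjusted p = 0.00117), with the same caution as a near copy of Ear2, which chose the cells. Cd226 stood at 19.4, 52.4 and 17.2 CPM against 0, 15.6 and 0.391 (2.65 ± 0.47, edgeR adjusted p = 0.0167). Cebpe stood at 13.8, 68.5 and 18.1 CPM against 0, 13.5 and 1.96 (2.77 ± 0.30, edgeR adjusted p = 0.000179). All 3 genes were higher in every selected sum than in every monocyte-scored sum, as for 4.1% of tested genes. F7 was higher by 2.34, Il6 by 2.29, Irf4 by 1.89, Sdc1 by 1.57 and Mmp19 by 1.16, all called. Aldh1a2, an enzyme of retinoic acid synthesis that marks serous cavity macrophages, was at 24.9, 99.1 and 44.2 CPM against 0, 20.5 and 0.782 (3.28 ± 0.53, edgeR adjusted p = 0.0295).

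Other genes higher than in the rest of the cells did not pass here or were lower. S100a4 stood at 877, 986 and 631 CPM against 1099, 770 and 697 (0.00 ± 0.15, edgeR adjusted p = 0.998), and S100a6 at 1029, 1855 and 1081 against 1373, 1065 and 956 (0.24 ± 0.25, edgeR adjusted p = 0.837). Timp1, Tppp3, Mrc1 and F13a1 did not pass either. Ifitm3 (-0.48 ± 0.11, edgeR adjusted p = 0.0243) and Clec4a1 (-0.57 ± 0.14, edgeR adjusted p = 0.0369), both above the other kept cells, were lower than in monocyte-scored cells. Interferon-stimulated genes were lower: of 16 tested 0 were higher and 12 lower, with a median of -1.54, where all 9007 genes had a median of 0.00. Oasl2, an interferon-induced synthetase relative, stood at 33.2, 9.59 and 14.8 CPM against 73.9, 89.2 and 61.0 (-2.32 ± 0.27, edgeR adjusted p = 0.00102). Rtp4 stood at 24.9, 14.0 and 15.8 CPM against 128, 56.0 and 82.2 (-2.18 ± 0.18, edgeR adjusted p = 6.70e-05), and Zbp1, a nucleic acid sensor, at 33.2, 28.0 and 26.3 against 92.4, 89.96 and 86.1 (-1.61 ± 0.15, edgeR adjusted p = 0.000121). These 3 genes did not overlap between the sets, as for 5.92% of tested genes in this direction. The monocyte list itself held Ms4a4c, an interferon-induced gene, and its part in this result was not tested.

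LYVE-1-scored cells were chosen in the same way over Lyve1, Cd163, Folr2, Cbr2, Timd4, Fcna and Cd209f, genes of resident perivascular macrophages. There were 738, of which 79 were also selected (16.3% of the selected, 10.7% of the LYVE-1-scored), and cells in both sets were again left out. Of 10490 genes tested 469 were higher in the selected cells (4.47%) and 371 lower (3.54%), or 8.01% in either direction. Without mouse 1 the counts were 1014 and 852, without mouse 3 they were 24 and 7, and without mouse 2 no gene passed (411 higher and 395 lower at an unadjusted edgeR p under 0.05). The selected cells are again the same. In the first comparison 2 of the 7 LYVE-1 list genes were higher (Timd4 and Folr2, by 0.79 and 0.68) and 0 lower, with a median of 0.68, but 0 and 0 passed against depth-matched cells. There Lyve1 stood at 0, 10.6 and 50.3 CPM in the selected cells against 4.95, 18.3 and 24.2 (log2 fold change 0.28 ± 0.50, edgeR adjusted p = 0.801), and Cd163 did not pass (0.54 ± 0.17, edgeR adjusted p = 0.0654).

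Against these cells the selected cells were higher in Ear1, Cd226 and Cebpe and in class II genes. Ear1 was higher by 4.84 ± 0.45 (edgeR adjusted p = 0.000584), Cd226 by 4.16 ± 0.37 (edgeR adjusted p = 3.02e-05) and Cebpe by 3.87 ± 0.26 (edgeR adjusted p = 4.89e-06). The caution on Ear1 as a near copy of Ear2, which chose the cells, holds here too. Ltb4r1 stood at 73.8, 127 and 58.3 CPM against 5.77, 8.42 and 3.82 (3.9996 ± 0.18, edgeR adjusted p = 7.17e-07), without overlap, as for 6.15% of tested genes in this direction. H2-Ab1 stood at 9954, 7992 and 6972 CPM against 2045, 4576 and 3131 (1.48 ± 0.26, edgeR adjusted p = 0.0228), and 8 of 16 class II presentation genes were higher and 1 lower, with a median of 1.22.

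Other genes were lower in the selected cells. F13a1 stood at 678, 475 and 399 CPM in the selected cells against 1176, 868 and 997 (-0.92 ± 0.13, edgeR adjusted p = 0.000965). Il4ra stood at 137, 107 and 121 CPM against 245, 203 and 206 (-0.75 ± 0.12, edgeR adjusted p = 0.0027), and Csf1r at 587, 537 and 637 against 930, 932 and 882 (-0.56 ± 0.11, edgeR adjusted p = 0.0106). None of these 3 genes overlapped, as for 11.3% of tested genes in this direction. Fcgrt, the neonatal Fc receptor that recycles antibodies, stood at 323, 107 and 184 CPM against 962, 531 and 697 (-1.88 ± 0.13, edgeR adjusted p = 1.26e-05). Ccl6 and Ccl24, both far above the other kept cells, did not pass here (0.68 ± 0.22 with edgeR adjusted p = 0.114, and -0.08 ± 0.62 with edgeR adjusted p = 0.963). Complement genes gave 1 higher and 8 lower of 16, with a median of -0.71.

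**Figure D5:**
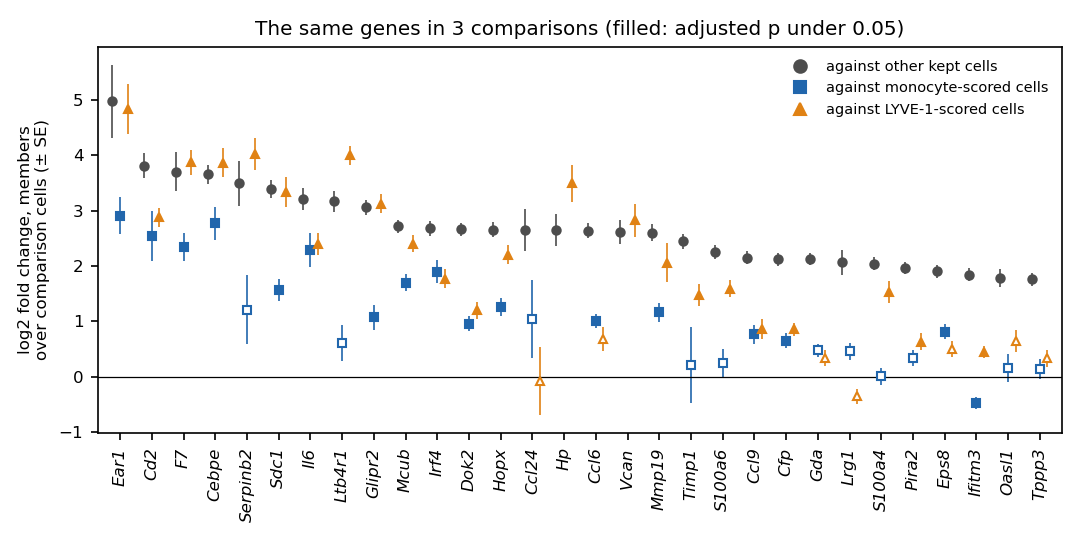
Log2 fold change ± SE of the selected cells over other kept cells (grey circles), monocyte-scored cells (blue squares) and LYVE-1-scored cells (orange triangles) for the 30 named higher genes; filled marks passed at an adjusted p under 0.05, and Hp and Vcan have no blue mark because they chose the monocyte-scored cells. Ear1, Cd2, F7, Cebpe and Il6 lie above 2 in all 3 comparisons, while S100a4 and Tppp3 lie near 0 against monocyte-scored cells. Ear1 is a near copy of Ear2, which chose the selected cells.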

How the data were processed

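Single-cell RNA libraries of 3 mice were read as UMI counts per gene and cell in the matrices the authors deposited, with 12454677, 41097369 and 86178419 UMIs. Per the submitters' processing notes Cell Ranger 3.0.2 and build mm10 were used; other settings are not given in the sources used here. Of 10973 barcodes, the 9749 with 500 or more genes detected and no more than 15% of UMIs from mitochondrial genes were kept. UMIs were summed per mouse and set, and tested with edgeR 4.0.16 (TMM, quasi-likelihood, mouse as a block, Benjamini-Hochberg adjustment); both sets of a pair come from the same mouse, which is what pairs them. The members and the 41 gene lists were chosen with earlier results of these data known. The newer form of the quasi-likelihood fit was chosen after a trial on simulated data. There 8.70% of its calls were false, above the rate that an adjusted p threshold of 0.05 aims at. A rate for the older form is not given here. Changes of 0.5, 1 and 2 (log2) were recovered in 7.69%, 64.2% and 93.4% of genes on 11090 genes. Named genes were the 7 genes of the rule, the 20 higher and 10 lower list genes with the largest log2 fold change (at least 10 CPM), the 10 higher and 6 lower genes in no list (at least 50 CPM), all with 1 sign in 3 mice, and a set of fixed genes; in the other comparisons the 6 largest each way were added. F5, Tnf, Clec10a, Batf3, Cebpb, Apoe and C1qa were named after their values were seen. Doublets were not removed: Scrublet called 0, 6 and 2 cells, too few to use as a filter, and removing the highest scores was an alternative. Median doublet scores were 0.0395, 0.0719 and 0.0978 in the selected cells against 0.0483, 0.059 and 0.0654, and their part in the results was not tested beyond that removal. Other alternatives changed the normalization, test, filters, share taken by score, depth, reference and mice. Python 3.11.15, scanpy 1.11.5, R 4.3.3 and DESeq2 1.42.0 were used. Intervals and limits from a count of 0 (3 counts) cover counting error only. One gene of the monocyte list is not reported here.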

Additional observations from a re-analysis of the deposited data

How the results depend on the processing

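Of 68 named genes 55 were called against other kept cells, and their direction held under every alternative that gave a value, except Wfdc18, which turned to 0.68 when cells with markers of other lineages left the reference. Counts moved more. Depth-matched reference cells gave 640 higher and 186 lower, and 578 and 182 also without cells of 3 or more of the 7 genes; taking all cells with 4 or more genes gave 797 lower. Leaving out each mouse gave 0 to 1202 higher and 0 to 662 lower. Against monocyte-scored cells the ranges were 70 to 291 and 70 to 225, and DESeq2 gave 92 higher; Cd207 turned to 0.27 with both sets chosen at 4000 UMIs. Against LYVE-1-scored cells the ranges were 0 to 1014 and 0 to 852, DESeq2 gave 268 and 196, the older edgeR fit 587 lower, and the top 4% gave 259 and 239; Ccl24 (-0.08, not called) ranged from -0.67 to 0.43 over the mice left out. With no replicate block, so without the pairing by mouse, the counts were 184 and 2, then 0 and 5 (226 and 209 at an unadjusted edgeR p under 0.05), then 96 and 60. Thinned to 2000 UMIs, the mean share of selected cells with a UMI was 56.7% for Lyz1, 31.9% for Ifitm6, 14.1% for Ear2, 90.7% for Fn1, 27.1% for Clec4b1 and 16.3% for F10. The causes of these shifts were not tested. Leaving out a mouse leaves 2 mice and few degrees of freedom. The alternatives that leave cells of 3 or more genes out of the reference, take all cells with 4 or more, or use the older fit were chosen after seeing the data. The 16 cells of mouse 1 limit every value there.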
